A study of Homo sapiens with 6 samples.

Results

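The genes described here encode enzymes and adaptors that attach ubiquitin to proteins or take it off, measured in the human colorectal cancer cell line RKO. They were chosen by symbol, as the rows of the deposited table named as TRIM, RNF, FBXL, FBXO, FBXW, KLHL, USP, UBE2, UBE3, UBE4, UBR, HERC, CUL, OTUD, MARCH, MIB, SMURF or NEDD4 genes. This gave 70 of the 3511 listed genes. By class these were 5 E2 conjugating enzymes, 1 HECT ligase, 11 TRIM proteins, 17 RNF proteins, 3 UBR proteins, 11 F-box proteins, 6 KLHL proteins, 12 USP deubiquitinases and 4 OTUD deubiquitinases. No UBE3, UBE4, CUL, MIB, SMURF or NEDD4 gene was listed.

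RNA was sequenced after 48 h from RKO cells in fasting medium, with 1% serum and 1 g/L glucose (3 samples), and in control medium, with 10% serum and 4.5 g/L glucose (3 samples). All 6 samples are labelled wild type, and low serum and low glucose cannot be told apart. Groups follow each sample's treatment label, because the protocol text shared by all samples describes the low-serum medium. The labels do not state whether replicates came from separate cultures. The p-values therefore rest on a spread between samples that may be technical. Drug treatments that the design text mentions were not analysed here. In such bulk samples, a change in the share of cells and a change in RNA per cell cannot be told apart.

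Ubiquitin is passed from an E1 activating enzyme to an E2 conjugating enzyme and then, with the help of an E3 ligase, to the target protein. RING ligases, among them most TRIM and RNF proteins, hold the E2 and the target together, and HECT ligases first take the ubiquitin onto themselves. Many F-box and KLHL proteins are the parts of cullin-RING ligases that choose the target. Deubiquitinases such as the USP and OTUD proteins remove or trim the chains, and many chain types send proteins to the proteasome.

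The table lists only genes with an authors' adjusted p under 0.05, which were 11.8% of the 29845 genes the authors tested. Its values are normalized counts, the reads of a gene divided by a size factor of its library. Reads in listed genes were 4187326, 5071791 and 4389842 in fasting replicates 1 to 3, against 4017618, 5602177 and 5513396 in control replicates 1 to 3. Of the marker lists, 1 of 10 colorectal epithelial genes was listed (KRT18), and none of 6 fibroblast and none of 5 leukocyte genes was. Of 10 acute stress genes, 8 were listed, FOS and HSPA1A among them. The 8 genes summed to 65664, 64859 and 79082 normalized counts in fasting replicates 1 to 3, against 9013, 9475 and 9816 in control replicates 1 to 3. All 8 were higher in fasting medium, and their part in the results below was not tested.

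Among the 70 genes, 36 were higher and 27 lower in fasting medium by limma with Benjamini-Hochberg adjustment, and 7 did not pass. The 63 called genes are 90% of the 70, near the background of 94.3% over all listed genes. Calls upward made 51.4% of the members against a background of 49.7%, and calls downward 38.6% against 44.6%. Changes of at least 2-fold were called in 22 of the 70 genes, or 31.4%, against a background of 46.4%. Of these, 15 were higher, or 21.4% against 26.6%, and 7 were lower, or 10% against 19.8%. The groups did not overlap for any of the 70 genes, which holds for 100% of the listed genes. The median absolute log2 fold change was 0.89 over the members and 0.97 over all listed genes.

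The balance of calls differed between ways of scaling the libraries. With each library scaled to its total of reads over listed genes, which moved the median of all listed genes by -0.48 on the log2 scale, 12 members were called higher and 32 lower. With relative log expression scaling, also computed over the listed genes alone, that median moved by 0.20 and the counts were 36 and 21. No member changed the sign of its log2 fold change under either scaling. Without moderation of the variances across genes, an alternative chosen after seeing the data, 39 members were called, 21 higher and 18 lower. Without fasting replicate 3, all 70 genes were called, 36 higher and 34 lower, against a background of 99.9%.

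**Figure D1:**
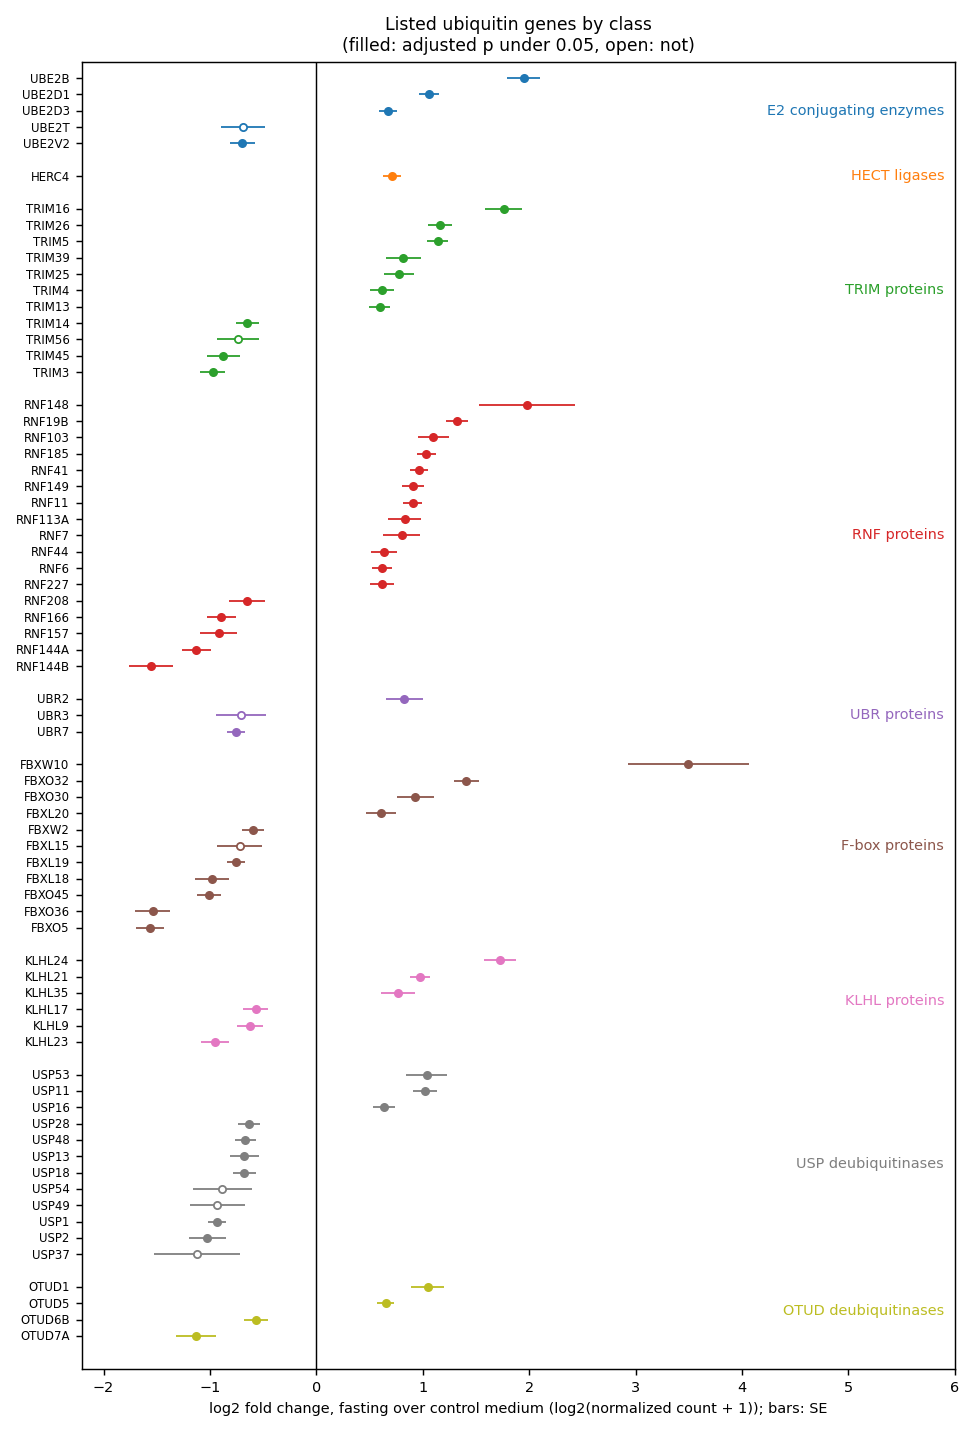
Log2 fold change, fasting over control medium, of each of the 70 genes (horizontal axis, log2(normalized count + 1)), by class (vertical axis), with filled points for an adjusted p under 0.05. RNF and TRIM proteins lie mostly on the positive side (12 of 17 and 7 of 11), and F-box and USP proteins mostly on the negative side (7 of 11 and 9 of 12).

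Classes differed in balance as a description, with no test run on a class. The 32 HECT, TRIM, RNF and UBR ligases had a median log2 fold change of 0.67, with 21 called higher and 9 lower. The 17 F-box and KLHL proteins, many of which bring targets to cullins, had a median of -0.59, with 7 higher and 9 lower. FBXO5, among them, is described below as an inhibitor of the anaphase-promoting complex. The 16 USP and OTUD deubiquitinases had a median of -0.67, with 5 higher and 8 lower. With total-read scaling the balance was 7 higher and 11 lower for the ligases (median 0.20), 3 and 10 for the F-box and KLHL proteins (-1.07) and 0 and 9 for the deubiquitinases (-1.15). With relative log expression scaling, F-box and KLHL proteins had 7 higher and 6 lower. With the length trend removed, their median was -0.27 and that of the deubiquitinases -0.42. Positive fold changes made 65.6% of these ligases and 31.3% of these deubiquitinases, beside 50.2% of all listed genes. Outside the symbol rule, they made 47.4% of 19 other listed RING ligases (median -0.64) and 57.1% of 7 other listed deubiquitinases (median 0.76). The median over all listed genes was 0.53. The smallest rise called among the members was 0.60 (TRIM13) and the smallest fall -0.57 (OTUD6B), so a class median lies well on one side unless its genes split evenly.

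The promoters of 4 called genes of different classes are shown, because they hold letters that NF-Y, an activator of many stress and cell cycle genes, is known to bind (CCAAT on either strand) and because their genes lie on both sides of the comparison. KLHL24 (chr3:183635373-183635672, plus strand) and TRIM26 (chr6:30213357-30213656, minus strand) were higher in fasting medium, and FBXO45 (chr3:196568410-196568709, plus strand) and USP1 (chr1:62436145-62436444, plus strand) were lower. Each window runs from 250 bases before to 50 bases after the annotated start, 5′ to 3′ along the gene, and comes from RefSeq on GRCh38.p14. Capitals mark CCAAT or its complement ATTGG and, in TRIM26, also GCGCCAAA, the complement of the E2F letters TTTGGCGC.
KLHL24: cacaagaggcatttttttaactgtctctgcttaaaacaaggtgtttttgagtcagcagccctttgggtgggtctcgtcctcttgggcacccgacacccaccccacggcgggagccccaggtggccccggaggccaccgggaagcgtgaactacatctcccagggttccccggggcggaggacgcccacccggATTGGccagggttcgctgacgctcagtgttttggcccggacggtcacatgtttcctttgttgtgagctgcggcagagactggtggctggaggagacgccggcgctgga
TRIM26: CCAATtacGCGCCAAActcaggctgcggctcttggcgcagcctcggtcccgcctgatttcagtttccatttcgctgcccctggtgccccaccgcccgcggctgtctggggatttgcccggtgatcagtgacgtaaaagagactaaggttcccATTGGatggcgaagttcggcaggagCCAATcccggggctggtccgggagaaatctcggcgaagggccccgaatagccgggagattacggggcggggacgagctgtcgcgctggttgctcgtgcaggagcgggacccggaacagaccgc
FBXO45: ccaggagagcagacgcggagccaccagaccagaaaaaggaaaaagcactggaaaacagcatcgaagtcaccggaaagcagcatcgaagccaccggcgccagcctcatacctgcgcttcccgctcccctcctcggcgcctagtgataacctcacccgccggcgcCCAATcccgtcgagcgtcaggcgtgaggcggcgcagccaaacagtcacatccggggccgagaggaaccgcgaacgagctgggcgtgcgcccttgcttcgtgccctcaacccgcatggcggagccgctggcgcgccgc
USP1: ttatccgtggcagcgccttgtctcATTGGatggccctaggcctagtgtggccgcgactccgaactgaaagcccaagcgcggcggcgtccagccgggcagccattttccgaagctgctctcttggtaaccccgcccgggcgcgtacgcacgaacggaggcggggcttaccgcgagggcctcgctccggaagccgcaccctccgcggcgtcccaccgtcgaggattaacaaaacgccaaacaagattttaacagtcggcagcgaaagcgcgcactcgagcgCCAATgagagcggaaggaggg

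Of the 70 genes, 53 matched a promoter in that table. CCAAT stood in 25 of these 53, in 15 of the 29 called higher and in 7 of the 19 called lower, and in 35.7% of all 27305 promoters. The heat shock element core GAANNTTC stood in 4 of the 53 and in 6.9% of all promoters, and the NRF2 element TGACNNNGC in 8 of the 53 and in 13.6%. The cell cycle homology region TTTGAA stood in 5 of the 53 and in 15.4%, and TTTCCCGC or TTTGGCGC, the E2F letters, in 2 of the 53 and in 2.3%. The ATF4 element TGATGNAA stood in none of the 53 and in 3.7% of all promoters. Both strands were searched and the motifs may overlap each other. These are matches of letters in a short window, not bound sites.

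Of the 5 E2 enzymes among the members, 3 were higher, 1 was lower and 1 did not pass. Their median log2 fold change was 0.67 (with total-read scaling, 2 higher, 2 lower and a median of 0.20). The largest rise among the 62 members whose mean reached 100 normalized counts was that of UBE2B, the RAD6 homologue that works with RAD18 on PCNA and with RNF20 and RNF40 on histone H2B. UBE2B had 1438, 1502 and 2159 normalized counts in fasting replicates 1 to 3, against 442, 441 and 415 in control replicates 1 to 3. The 3 control libraries lay within a narrow band, and fasting replicate 3 was the highest of all. UBE2B averaged 1700 ± 399 in fasting medium and 433 ± 15.3 in control medium (SD, n = 3 each), a log2 fold change of 1.95 ± 0.15 (SE, adjusted p = 1.79e-04), or 3.86-fold.

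UBE2D1 and UBE2D3 are closely related E2 enzymes that serve many RING ligases. UBE2D1 had 1055, 1021 and 1214 normalized counts in fasting medium, against 516, 550 and 509 in control medium, and rose by 1.06 ± 0.10 on the log2 scale (adjusted p = 3.36e-04). UBE2D3 had 6261, 6380 and 7285 in fasting medium, against 4174, 4199 and 4095 in control medium, a log2 fold change of 0.67 (adjusted p = 1.57e-03). Per kilobase of transcript, UBE2D3 averaged 1594 normalized counts in fasting medium and 998 in control medium. Its call was lost with values scaled to total reads (log2 fold change 0.20, adjusted p = 0.151), and an antisense RNA that overlaps it, AC018797.2, is also listed.

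UBE2V2 is an E2 variant without a catalytic cysteine that pairs with UBE2N to build lysine-linked signalling chains. It had 552, 618 and 737 normalized counts in fasting medium, against 1046, 977 and 1047 in control medium, and fell by 0.70 ± 0.12 on the log2 scale (adjusted p = 5.49e-03). UBE2T, the E2 of the Fanconi anaemia pathway, had 265, 243 and 432 in fasting medium, against 494, 502 and 472 in control medium. Fasting replicate 3 of UBE2T lay close to the control libraries, and its log2 fold change of -0.69 did not pass (adjusted p = 0.0891).

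The 17 RNF proteins, most of them RING ligases, had 12 members called higher and 5 lower, with a median log2 fold change of 0.80. The class median lay at 0.63, 0.72 and 0.84 log2 units above the control means in fasting replicates 1 to 3. RNF19B, a RING-between-RING ligase, had the smallest adjusted p of all 70 genes (1.38e-04). It had 758, 860 and 897 normalized counts in fasting medium, against 342, 342 and 318 in control medium, a log2 fold change of 1.32 ± 0.10.

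RNF103 and RNF185 are ligases of the endoplasmic reticulum membrane that take part in the removal of misfolded proteins. RNF185 had 848, 862 and 925 normalized counts in fasting medium, against 456, 412 and 421 in control medium (log2 fold change 1.03, adjusted p = 2.55e-04). RNF103 had 321, 320 and 282 in fasting medium, against 147, 166 and 120 in control medium (log2 fold change 1.10, adjusted p = 1.66e-03). For both genes all fasting libraries lay above all control libraries, and the groups were apart in 100% of the listed genes. Each of the 2 genes overlaps an antisense RNA that is not listed. RNF103 also shares exons with the readthrough gene RNF103-CHMP3, so its reads are uncertain.

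Among the other RNF genes called higher, RNF41, which targets ERBB3, had 1438, 1413 and 1535 normalized counts in fasting medium, against 762, 703 and 784 in control medium (log2 fold change 0.96, adjusted p = 2.78e-04). RNF11, a partner of the A20 complex, had 2155, 2199 and 2028 in fasting medium, against 1229, 1132 and 1055 in control medium (log2 fold change 0.90). RNF149 had a log2 fold change of 0.91, RNF113A, a splicing factor with a RING, of 0.83, and RNF44, RNF6 and RNF227 lay between 0.62 and 0.63. In RNF41 and RNF11 all fasting libraries lay well above the control libraries, and RNF7 was highest in fasting replicate 3. RNF7, the RING subunit that binds CUL5, had 560, 536 and 831 in fasting medium, against 397, 336 and 352 in control medium (log2 fold change 0.80, adjusted p = 0.0194). RNF148 was near the limit of detection, with 7.62, 5.23 and 12.4 in fasting medium, against 2.96, 0.71 and 0.73 in control medium (adjusted p = 0.0253).

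The 2 RING-between-RING ligases RNF144A and RNF144B were lower, while RNF19B, of the same domain family, was higher. RNF144A, which acts on the DNA repair kinase DNA-PKcs, had 242, 236 and 184 normalized counts in fasting medium, against 466, 524 and 456 in control medium (log2 fold change -1.13 ± 0.13, adjusted p = 1.05e-03). RNF144B, a p53 target gene, had 11.4, 9.41 and 9.63 in fasting medium, against 26.6, 34.1 and 34.9 in control medium (log2 fold change -1.55, adjusted p = 1.72e-03). RNF166 and RNF157 were also lower (log2 fold changes -0.89 and -0.92). RNF208 had 626, 666 and 1002 in fasting medium, against 1183, 1152 and 1198 in control medium, with fasting replicate 3 nearest to the control libraries (log2 fold change -0.65, adjusted p = 0.0480).

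With values scaled to total reads, the RNF median was 0.32, with 4 higher and 5 lower, and 8 of the 12 rising genes no longer passed (RNF103, RNF11, RNF113A, RNF148, RNF227, RNF44, RNF6 and RNF7, adjusted p 0.0670 and above), and with relative log expression scaling RNF208 did not (adjusted p = 0.215). Leaving out single libraries ended the calls of RNF113A and RNF157 (without control replicate 1, adjusted p 0.0510 and 0.0598), RNF7 (without control replicate 2 or 3, 0.0904 and 0.0949), RNF44 (without control replicate 1 or 2 or fasting replicate 2, up to 0.0648), RNF148 (without control replicate 2 or 3 or fasting replicate 1, up to 0.123) and RNF208 (without any library but fasting replicate 3, up to 0.191).

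Of the 11 TRIM proteins, which carry B-box domains and in most cases a RING, 7 were higher, 3 lower and 1 did not pass, with a median log2 fold change of 0.62. TRIM16, a TRIM protein without a RING that takes part in autophagy of damaged membranes, had 296, 272 and 429 normalized counts in fasting medium, against 97.6, 95.2 and 93.8 in control medium. It rose by 1.76 ± 0.18 on the log2 scale (adjusted p = 5.21e-04), with fasting replicate 3 the highest library. Its close copy TRIM16L, which the symbol rule leaves out, had 545, 517 and 689 in fasting medium, against 136, 147 and 127 in control medium (log2 fold change 2.08), and how reads were shared between both genes is not known. TRIM16 also overlaps the listed gene AC005324.3 on the same strand.

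TRIM26 had 2736, 2722 and 2201 normalized counts in fasting medium, against 1120, 1059 and 1235 in control medium (log2 fold change 1.16, adjusted p = 4.38e-04). TRIM5, the factor that restricts retroviral capsids, had 305, 313 and 319 in fasting medium, against 143, 138 and 142 in control medium (log2 fold change 1.14, adjusted p = 2.51e-04). The libraries of TRIM5 lay close together within each group. TRIM25, a ligase of the RIG-I pathway, had 2638, 2562 and 1821 in fasting medium, against 1358, 1363 and 1317 in control medium, with fasting replicate 3 lowest of the fasting libraries (log2 fold change 0.78, adjusted p = 8.28e-03). TRIM39, TRIM4 and TRIM13 were called higher with log2 fold changes of 0.82, 0.62 and 0.60. TRIM25 overlaps the listed gene C17orf67 on the same strand, and TRIM13 the listed antisense RNA DLEU2. TRIM39 shares exons with the readthrough gene TRIM39-RPP21, which is not listed, so its reads are uncertain.

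TRIM3, a brain-rich TRIM protein with NHL repeats, had 193, 174 and 171 normalized counts in fasting medium, against 315, 362 and 382 in control medium (log2 fold change -0.97, adjusted p = 1.16e-03). TRIM45 and TRIM14 were also called lower (log2 fold changes -0.87 and -0.65), and TRIM14 overlaps the listed gene NANS on the other strand. TRIM56, which acts in the STING pathway and has the longest transcript of the 70 genes, had 2488, 2286 and 1415 in fasting medium, against 3192, 3429 and 3404 in control medium. Its log2 fold change of -0.74 did not pass (adjusted p = 0.0537), and fasting replicate 3 was its lowest library. With values scaled to total reads, the TRIM median was 0.14, with 3 higher and 4 lower, and TRIM13, TRIM25, TRIM39 and TRIM4 no longer passed (adjusted p 0.535 and above), and TRIM39 was also lost without control replicate 2 or 3 (adjusted p 0.0704 and 0.0746).

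HERC4 was the only listed HECT ligase among the 70 genes. It had 1120, 1151 and 1013 normalized counts in fasting medium, against 687, 641 and 674 in control medium (log2 fold change 0.71, adjusted p = 1.26e-03, but 0.753 with values scaled to total reads). The UBR proteins carry a UBR box, which in UBR2 reads destabilizing N-terminal residues. UBR2 had 1766, 1792 and 1139 in fasting medium, against 808, 885 and 907 in control medium (log2 fold change 0.82, adjusted p = 0.0169), and lost its call with total-read scaling (adjusted p = 1) and without any library but fasting replicate 3 (up to 0.0859). UBR7, which also holds a PHD finger and acts on histone H2B, had 608, 650 and 693 in fasting medium, against 1121, 1115 and 1062 in control medium (log2 fold change -0.76, adjusted p = 8.84e-04). UBR3 had 613, 613 and 323 in fasting medium, against 792, 831 and 814 in control medium, and its log2 fold change of -0.71 did not pass (adjusted p = 0.144).

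**Figure D2:**
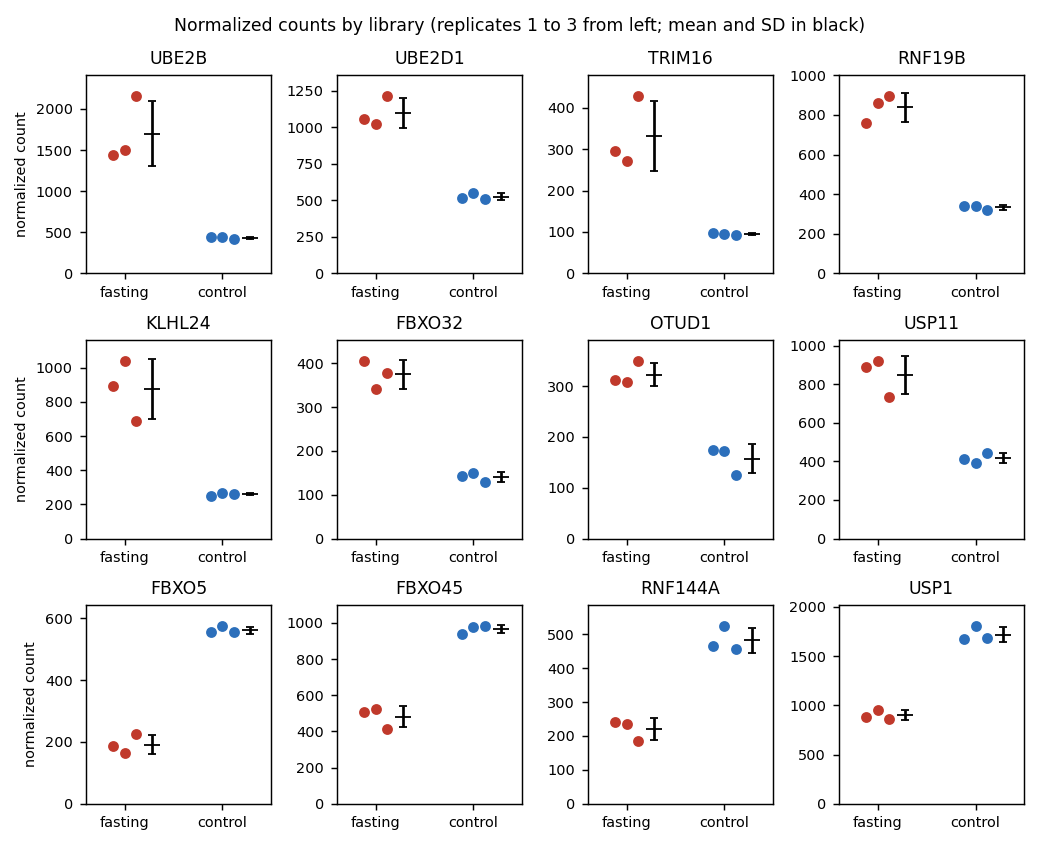
Normalized counts (vertical axes, starting at 0) of 12 named members in each fasting and control library, with a point for each library (replicates 1 to 3 from left) and the group mean and SD in black (n = 3 each). In all panels the 3 fasting libraries lie wholly above or wholly below the 3 control libraries, as they do for 100% of the listed genes.

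Many F-box proteins choose the targets of SKP1-CUL1 ligases. Of the 11 F-box proteins among the members, 4 were higher, 6 lower and 1 did not pass. Their median log2 fold change of -0.72 was close in fasting replicates 1 to 3 (-0.73, -0.79 and -0.72). FBXO32, also called atrogin-1 and known for its rise in wasting muscle, had 405, 341 and 377 normalized counts in fasting medium, against 142, 151 and 129 in control medium (log2 fold change 1.41 ± 0.12, adjusted p = 2.21e-04). FBXO30, linked to muscle wasting in mice, had 2450, 2537 and 1590 in fasting medium, against 1151, 1163 and 1068 in control medium (log2 fold change 0.93, adjusted p = 9.08e-03). FBXW10 had 9, 19 and 15 reads in fasting replicates 1 to 3, against 0, 0 and 4 reads in control replicates 1 to 3. At such counts its fitted log2 fold change of 3.50 ± 0.57 (adjusted p = 4.45e-03) depends on the added pseudocount, and its close copy FBXW10B is listed too.

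FBXO5, or EMI1, an inhibitor of the anaphase-promoting complex, fell most among members with a mean of at least 100. It had 185, 163 and 226 normalized counts in fasting medium, against 554, 574 and 555 in control medium (log2 fold change -1.56 ± 0.13, adjusted p = 2.28e-04). FBXO45, whose SPRY domain binds targets and whose promoter is shown above, had 507, 526 and 414 in fasting medium, against 940, 980 and 982 in control medium (log2 fold change -1.01, adjusted p = 7.31e-04). For both genes all fasting libraries lay below all control libraries, and the groups were apart in 100% of the listed genes.

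FBXO36 was low in both groups, with 17.8, 16.7 and 15.1 normalized counts in fasting medium, against 48.3, 49.0 and 52.3 in control medium (log2 fold change -1.54, adjusted p = 6.78e-04). FBXL19, which binds CpG islands, had 710, 694 and 726 in fasting medium, against 1155, 1284 and 1164 in control medium (log2 fold change -0.76, adjusted p = 7.68e-04). The libraries of each of these genes lay close together within a group. FBXL18 had 293, 263 and 195 in fasting medium, against 448, 498 and 520 in control medium (log2 fold change -0.98, adjusted p = 4.53e-03). FBXL15 had 213, 195 and 349 in fasting medium, against 409, 435 and 367 in control medium, and did not pass (log2 fold change -0.72, adjusted p = 0.0889). Its fasting replicate 3 lay just below the lowest control library.

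FBXW2 had 1980, 1973 and 1581 normalized counts in fasting medium, against 2793, 2764 and 2758 in control medium (log2 fold change -0.59, adjusted p = 6.63e-03). With the length trend of each library removed, its log2 fold change was 0.036 (adjusted p = 1), and with relative log expression scaling it was not called (adjusted p = 0.0786). With total-read scaling the F-box median was -1.20, with 2 higher and 7 lower. FBXL20 (log2 fold change 0.61, adjusted p = 0.0248) and FBXO30 were lost with total-read scaling (adjusted p = 1 and 0.753). FBXL20 was also lost without control replicate 1 or 3 or fasting replicate 1 or 2 (adjusted p up to 0.129), and FBXO30 without control replicate 3 (0.0550).

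KLHL proteins are the matching adaptors of CUL3. Of the 6 listed, 3 were higher and 3 lower, with a median log2 fold change of 0.10 that became -0.38 with total-read scaling (1 higher, 3 lower) and 0.30 with relative log expression scaling (3 higher, 1 lower). KLHL24, which controls keratin turnover in skin, had 890, 1039 and 689 normalized counts in fasting medium, against 251, 267 and 261 in control medium (log2 fold change 1.72 ± 0.15, adjusted p = 2.59e-04). KLHL21, which acts on Aurora B at cell division, was the more abundant, with 4391, 4213 and 3615 in fasting medium, against 2034, 2134 and 2039 in control medium (log2 fold change 0.97, adjusted p = 4.41e-04). Its call was lost with total-read scaling (log2 fold change 0.50, adjusted p = 0.0649), as was that of KLHL35 (0.77 on the scale as deposited).

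KLHL23 had 494, 523 and 374 normalized counts in fasting medium, against 879, 921 and 868 in control medium (log2 fold change -0.95, adjusted p = 2.29e-03), and overlaps PHOSPHO2 on the same strand. KLHL9, which works with KLHL13 on Aurora B, and KLHL17 were also called lower (log2 fold changes -0.63 and -0.57). Leaving out any single control library ended both calls (adjusted p 0.0530 to 0.0747), as did relative log expression scaling (0.122 for KLHL9 and 0.0957 for KLHL17), and KLHL35 was lost without control replicate 1 or 3 (0.0823 and 0.0877).

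Of the 12 USP deubiquitinases, 3 were higher, 6 lower and 3 did not pass, with a median log2 fold change of -0.68. USP11, a deubiquitinase of DNA repair proteins, had 891, 921 and 736 normalized counts in fasting medium, against 414, 391 and 442 in control medium (log2 fold change 1.02, adjusted p = 7.71e-04). USP53 had 608, 568 and 359 in fasting medium, against 239, 250 and 240 in control medium (log2 fold change 1.04, adjusted p = 8.91e-03). USP16, which acts on histone H2A, had a log2 fold change of 0.64. All 3 calls were lost with total-read scaling (adjusted p 0.0811 and above), where no USP gene was called higher, 7 were called lower and the class median was -1.15. With the length trend removed, that median was -0.44.

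USP1, which removes ubiquitin from FANCD2 and PCNA, had 882, 954 and 859 normalized counts in fasting medium, against 1673, 1803 and 1680 in control medium. It fell by 0.94 ± 0.08 on the log2 scale (adjusted p = 2.89e-04), the smallest adjusted p of the class. Its fasting and control libraries were far apart compared with the spread within each group. USP18, which removes the ubiquitin-like ISG15, had 118, 127 and 127 in fasting medium, against 192, 202 and 202 in control medium (log2 fold change -0.68, adjusted p = 3.96e-03). USP48, USP28, which stabilizes MYC, and USP13 were called lower with log2 fold changes of -0.67, -0.64 and -0.68, and USP2, at 19.04, 19.87 and 22.00 in fasting medium, against 42.4, 46.2 and 38.5 in control medium, with -1.02. The call of USP13 ended when control replicate 1 or 2 was left out (adjusted p 0.0586 and 0.0747), with relative log expression scaling (0.0910) and with the length trend removed (1).

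The 3 USP genes that did not pass have long transcripts. USP37, which stabilizes cyclin A, had 230, 237 and 74.3 normalized counts in fasting medium, against 352, 372 and 322 in control medium (log2 fold change -1.12, adjusted p = 0.219). USP54 had 180, 181 and 85.3 in fasting medium, against 244, 280 and 259 in control medium (log2 fold change -0.88, adjusted p = 0.119). USP49 had 218, 187 and 103 in fasting medium, against 337, 284 and 309 in control medium (log2 fold change -0.93, adjusted p = 0.0663). USP54 overlaps the listed RNA PPP3CB-AS1 on the other strand. In each of the 3 genes fasting replicate 3 was far below fasting replicates 1 and 2. Without it, the log2 fold changes were -0.57 for USP37 (adjusted p = 2.31e-04), -0.53 for USP54 (1.05e-03) and -0.61 for USP49 (5.29e-04).

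The 4 OTUD deubiquitinases split evenly, with a median log2 fold change of 0.041 that became -0.43 with total-read scaling (0 higher, 2 lower) and 0.24 with relative log expression scaling (2 higher, 1 lower). OTUD1 had 311, 308 and 349 normalized counts in fasting medium, against 175, 173 and 125 in control medium (log2 fold change 1.04, adjusted p = 2.84e-03). OTUD5, which trims chains on TRAF3, had 1493, 1554 and 1690 in fasting medium, against 969, 1016 and 1030 in control medium (log2 fold change 0.65, adjusted p = 1.55e-03). Both lost their calls with total-read scaling (adjusted p 0.0750 and 0.438). OTUD7A had 31.7, 31.4 and 23.4 in fasting medium, against 56.2, 71.0 and 65.4 in control medium (log2 fold change -1.14, adjusted p = 4.78e-03, and 0.227 with the length trend removed). OTUD6B was lower by a log2 fold change of -0.57 and its call ended when control replicate 2 or 3 was left out (adjusted p 0.0724 and 0.0660) and with relative log expression scaling (0.134).

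Fasting replicate 3 differed from fasting replicates 1 and 2 along transcript length in these genes. Over the 62 members with a mean of at least 100, the log2 difference between fasting replicate 3 and the mean of the other two had a Spearman rho of -0.80 with annotated transcript length, beside -0.72 over 2886 listed genes. This is a description across genes that share the same libraries, and genes are not independent replicates. Fasting replicate 3 was above the others for 14 of 14 members with transcripts of 908 to 2740 bases (median 0.38), 12 of 26 with 2763 to 4454 bases (-0.056) and 3 of 22 with 4595 to 10952 bases (-0.40). The farthest below were USP37 (-1.64), USP54 (-1.07), USP49 (-0.96) and UBR3 (-0.92), and FBXL15 (0.77) and UBE2T (0.76) were the farthest above. All 7 members that did not pass (TRIM56, USP49, FBXL15, UBE2T, USP54, UBR3 and USP37) differed by at least 0.75 in absolute value. Such a gap itself adds to the spread within the group that limma uses, so this pattern is partly built in. RNF148, which is low in counts and was called, differed by 0.87. All 7 passed without fasting replicate 3, as did 99.9% of all listed genes.

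**Figure D3:**
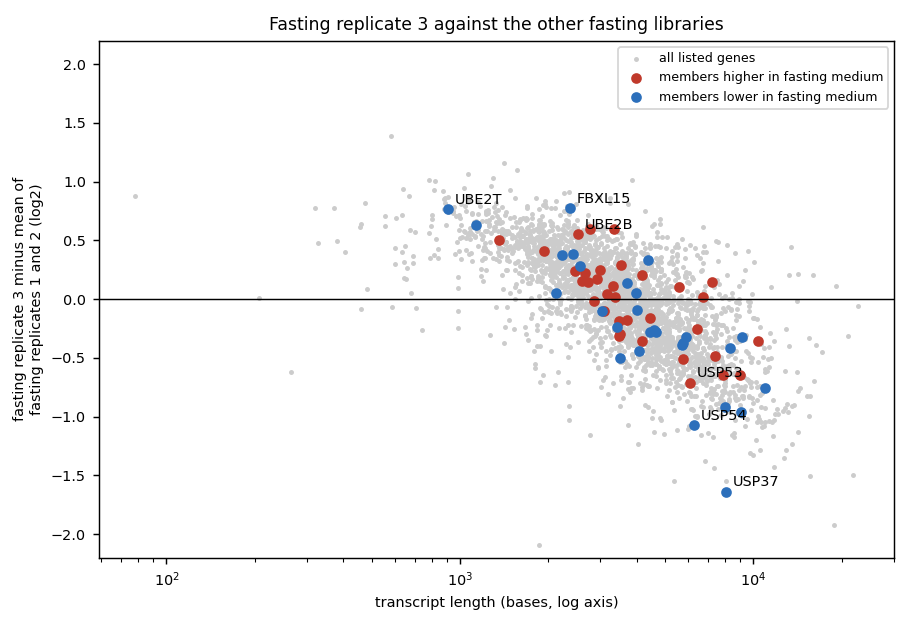
Log2 difference of fasting replicate 3 from the mean of fasting replicates 1 and 2 (vertical axis) against annotated transcript length in bases (horizontal log axis), for members whose mean reached 100 normalized counts over the other listed genes in grey. All 14 members of up to 2740 bases lie above 0, as do 3 of the 22 members of 4595 bases or more, and USP37 is lowest at -1.64.

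By the domains that the authors' deposited table annotates, 26 members carry a RING-type zinc finger, 18 of them called higher and 7 lower. The background over all listed genes was 49.7% called higher and 44.6% lower. This annotation stood in 59 listed genes, and calls among those outside the members were not counted. The 19 other listed RING ligases followed below had 9 higher and 9 lower. Members with a B30.2/SPRY domain, a fold that binds target proteins, were 7 TRIM proteins and FBXO45, with 6 called higher and 2 lower. The 4 F-box proteins with leucine-rich repeats had 1 called higher (FBXL20) and 2 lower (FBXL18 and FBXL19).

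Beside the members, 3 more genes whose annotated symbols fit the families of the rule were listed under other names. MARCHF6, a ligase of the endoplasmic reticulum, had 3831, 3543 and 2675 normalized counts in fasting medium, against 2194, 2232 and 2160 in control medium (log2 fold change 0.59, adjusted p = 0.0232). MARCHF9 had 512, 458 and 575 in fasting medium, against 843, 931 and 748 in control medium (log2 fold change -0.71, adjusted p = 6.13e-03). Both symbols had been turned into dates in the deposited table and were matched by gene identifier. USP36, a nucleolar deubiquitinase listed under a clone name, had 2647, 2612 and 1977 in fasting medium, against 1306, 1268 and 1458 in control medium (log2 fold change 0.83, adjusted p = 3.62e-03). With these 3, the table held 73 of 415 annotated protein-coding genes of the families (17.6%), beside 3073 of 19951 protein-coding genes (15.4%).

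The rest of the ubiquitin system was followed through lists of other genes, chosen with earlier results of these data known. Their listed shares and directions are therefore descriptions, not independent support for a pattern. As background, 15.4% of protein-coding genes were listed, and 49.7% of all listed genes were called higher and 44.6% lower. Of 5 ubiquitin and E1 genes followed here, 1 was listed. UBB, a polyubiquitin gene, had 3986, 4432 and 6937 normalized counts in fasting medium, against 1935, 1906 and 1703 in control medium (log2 fold change 1.43, adjusted p = 1.96e-03). Fasting replicate 3 was its highest library, and it did not pass without variance moderation (adjusted p = 0.0646).

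Of 48 other RING ligases, 19 were listed, with 9 higher, 9 lower and 1 not passing (median log2 fold change -0.64). UHRF1, which maintains DNA methylation, and NEURL1B, a ligase of Notch ligands, were lower (-1.52 and -2.41), and CBLB, which acts on receptor tyrosine kinases, was higher (1.36). RAD18, the ligase partner of UBE2B, was named after its values were seen. It had 366, 370 and 353 normalized counts in fasting medium, against 696, 701 and 707 in control medium (log2 fold change -0.95, adjusted p = 2.59e-04), opposite in sign to UBE2B. HECW2 was the only one of 13 other HECT ligases listed, with 26 reads over the fasting libraries and none over the control libraries, at least 13.3-fold higher against a floor of 3 reads over the group.

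Of 53 partners and regulators of cullin ligases, 8 were listed, with 2 higher and 6 lower (median -0.81). SKP2, the F-box protein that targets the cell cycle inhibitor p27, does not carry the FBXL symbol and so stands here. It had 369, 354 and 348 normalized counts in fasting medium, against 1307, 1255 and 1290 in control medium (log2 fold change -1.84, adjusted p = 1.99e-05). KBTBD8, a CUL3 adaptor, was higher (1.89). Of 17 genes of the anaphase-promoting complex and its regulators, 7 were listed, FBXO5 among them, with 1 higher, 5 lower and 1 not passing (median -0.98). CDC20, its mitotic activator, had 603, 546 and 767 in fasting medium, against 2109, 1998 and 2044 in control medium (-1.70, adjusted p = 1.44e-04), and ANAPC16, a small subunit, was higher (0.98). The call of ANAPC16 was lost with total-read scaling (adjusted p = 0.0649) and without variance moderation (0.0610).

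Of 28 deubiquitinases of other families, 7 were listed, with 4 higher, 2 lower and 1 not passing (median 0.76). CYLD, which removes linear and lysine-linked signalling chains, had 1514, 1632 and 1323 normalized counts in fasting medium, against 450, 445 and 448 in control medium (log2 fold change 1.73, adjusted p = 4.88e-05). UCHL5, a deubiquitinase of the proteasome, was lower (-0.60, but not called with the length trend removed, adjusted p = 0.138). Of 26 genes for ubiquitin-like modifiers and their enzymes, 6 were listed, with 2 higher, among them the modifier UFM1 (0.75, not called with total-read scaling, adjusted p = 0.113), and 4 lower, among them the SUMO protease SENP3 (-1.03), with a median of -0.64.

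Of 47 proteasome subunits and assembly factors, 3 were listed and all 3 were lower, PSMB9, an immunoproteasome subunit (-1.21), PSME3, an activator (-0.57), and PSMD3 (-0.52). PSMD3 was not called with relative log expression scaling (adjusted p = 0.108), without variance moderation (0.110) or without any library but fasting replicate 3 (0.0574 to 0.0865). Of 33 ubiquitin receptors and VCP complex genes, 13 were listed, with 12 higher, none lower and 1 not passing (DDI2), and a median of 1.02. VCP itself and its cofactors NPLOC4 and UFD1 were not among the 13. Over all listed genes, 49.7% were called higher and 44.6% lower. ZFAND2A, a proteasome-associated stress protein, had the largest of these rises (log2 fold change 5.40), and HERPUD1, which serves degradation at the endoplasmic reticulum, rose by 3.34. With total-read scaling, higher and lower calls were 3 and 10 for other RING ligases, 0 and 6 for the anaphase-promoting complex, 3 and 3 for other deubiquitinases, 1 and 4 for ubiquitin-like modifiers and 7 and 1 for receptors and VCP complexes. With relative log expression scaling they were 2 and 2 for ubiquitin-like modifiers and 4 and 1 for other deubiquitinases. The counts of these lists are descriptions of the listed genes, and the genes not listed were not analysed here.

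**Figure D4:**
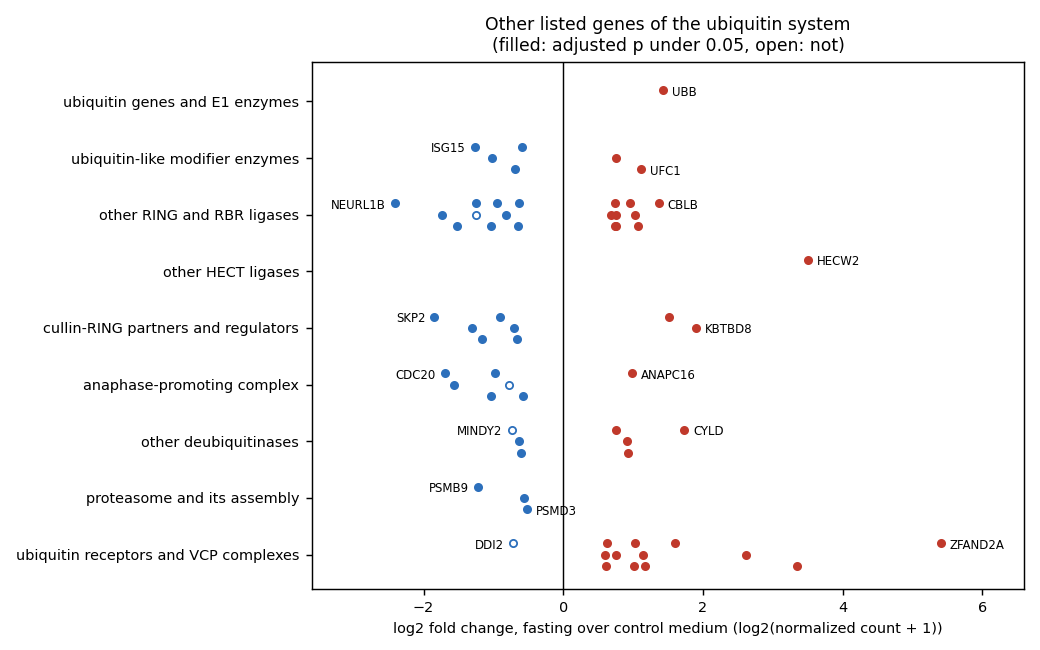
Log2 fold change, fasting over control medium (horizontal axis, log2(normalized count + 1)), of listed genes from 9 lists of the ubiquitin system (vertical axis), filled where the adjusted p was under 0.05. The listed receptor and VCP complex genes, VCP itself not among them, lie on the positive side except DDI2. The 3 listed proteasome genes lie on the negative side.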

How the data were processed

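RNA from 3 fasting and 3 control samples was sequenced. Per the labels' protocols, total RNA was made into directional libraries. The submitters' processing notes name DESeq 1.10.1, HTSeq 0.6.1 and UMI-tools 1.0.0 without saying what each did. No aligner, build, annotation or use of strand in counting is given in the sources used here. Reads of genes that overlap or have near copies are therefore uncertain, also where an overlap is not named above. The deposited sample columns are a signal with no stated unit. From the values they are whole reads divided by a size factor per library, for 100% of values within 0.01 read. Size factors were 0.788, 0.956 and 0.727 in fasting replicates 1 to 3 and 1.01, 1.41 and 1.38 in control replicates 1 to 3. Per the file headers, the authors' p-value, its adjusted form and their log2 fold change stand beside them, and all listed genes have an authors' adjusted p under 0.05.

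Because the deposited values are normalized, the test was limma 3.58.1 (R 4.3.3) on log2(normalized count + 1), using its trended prior variance. Genes entered when either group averaged at least 1. The limma test was two-sided, with Benjamini-Hochberg adjustment over 29845 genes, unlisted ones counted as not passing, and a threshold of 0.05. Log2 fold changes are fasting minus control and understate the change of low genes. Moderation was estimated on listed genes alone, which were selected on this contrast. The script was tested on simulated data. Alternatives, edgeR 4.0.16 and DESeq2 1.42.0 on the recovered reads among them, are given at the end.

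Members and lists were chosen with earlier results of these data known. Genes were named as the 14 largest rises and 14 largest falls among called members with a mean of at least 100, those with the smallest adjusted p in each direction per class, and up to 3 genes per list by adjusted p. Other members were named to account for all 70. Symbols were matched by identifier for 3467 of 3511 genes, and transcript lengths from GENCODE for 3465. Proteins are not shown here, and 1 gene was taken out of the lists and is not reported here.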

Additional observations from a re-analysis of the deposited data

How the results depend on the processing

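Pseudocounts of 0.5 and 10 and the filters on low values changed no member's call, although the filter at a mean of at least 10 left out RNF148. Counting of called members gave 64 with edgeR under either scaling, 69 with DESeq2, and 52 to 70 when single libraries were left out. With total-read scaling, 12 members were called higher, 36 changed at least 2-fold, and 0 HECT, 9 RNF and 2 OTUD genes were called. Without variance moderation, 39 members were called, 21 of them higher. The class counts were then 6 TRIM, 11 RNF, 1 UBR, 5 F-box, 3 KLHL and 2 OTUD genes. The list counts were 0 for ubiquitin and E1 genes, 2 for ubiquitin-like modifiers, 10 for other RING ligases and 3 for other deubiquitinases. The 24 calls lost there were those of UBE2V2, FBXL18, FBXL20, FBXO30, FBXW10, FBXW2, KLHL17, KLHL35, KLHL9, OTUD1, OTUD6B, RNF113A, RNF148, RNF208, RNF227, RNF44, RNF7, TRIM14, TRIM25, TRIM39, TRIM4, UBR2, USP13 and USP53. Leaving out single libraries gave 1 to 3 called UBR genes, 3 to 6 KLHL genes and 3 to 6 ubiquitin-like modifier genes. FBXW2 changed sign with the length trend removed (0.036), and the cause was not tested. RNF208 also lost its call with edgeR at the authors' size factors (adjusted p = 0.0513) and without a variance trend (0.0969). Of the 63 called members, 48 kept their call in every leave-one-out fit and 27 under all alternatives run.

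Whether the replicate numbers pair the samples could not be decided from these values. Deviations of same-numbered samples from their group means correlated by 0.032, 0.027 and 0.077 over 2897 genes, and 2 of 3 fasting libraries correlated best with their own number. With the replicate number as a block, 64 members were called, 36 higher and 28 lower, and USP49 passed (adjusted p = 0.0460). Over all listed genes 3293 were called with the block and 3312 without it.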
